A study of Mus musculus with 4 samples.

Results

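The collagen genes of mouse gastrocnemius muscle were described on 4 Affymetrix arrays, 1 for each combination of genotype and treatment. The members are all genes whose symbol in the array annotation begins with Col, a number, the letter a and a number. The rule found 44 genes among 22180, each read by its brightest transcript cluster with a single symbol. By molecular type, 11 encode fibrillar chains, 6 basement membrane chains, 9 fibril-associated chains and 18 chains of other kinds. Of these, 41 passed the level filter described below, and Col10a1, Col4a4 and Col6a5 did not.

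The groups were KO given streptozotocin (STZ), KO given vehicle, WT given STZ and WT given vehicle. KO mice carry a deletion of the transcription factor gene Klf15 restricted to skeletal muscle, and WT are wild-type mice. STZ destroys pancreatic beta cells, which models insulin-deficient diabetes. By the protocols in the labels, it was injected into the peritoneum at 50 mg/kg on 5 consecutive days in 50 mM sodium citrate of pH 4.5, vehicle animals received the citrate alone, and muscle was collected after 3 weeks. The labels do not state the driver of the deletion, the strain, sex and age of the animals, their blood glucose or how many animals each array stands for.

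Collagens are trimers of chains that wind into a triple helix, a fold that needs glycine at regular intervals along each chain. Fibrillar collagens assemble into the tension-bearing fibres of connective tissue, fibril-associated collagens bind to the surface of those fibres, and type IV collagens form the sheet of the basement membrane around each muscle fibre and capillary. Type VI collagen forms beaded filaments between the basement membrane and the fibres around it. In skeletal muscle most collagen is made by fibroblasts and other cells between the fibres rather than by the muscle fibres.

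Array values are linear intensities, and differences below are on the log2(intensity + 3.69) scale, which damps the change of dim genes. A gene passed the level filter when its mean on that scale lay above the median of all clusters, an intensity of 5.81, and 13258 genes did. Col6a5 lay just below that limit with a mean of 3.22 and Col6a4 just above it with 3.25. With 1 array per group there is no replicate check, no test and no error for any difference. Members were therefore counted past a limit of 1.5-fold (0.58 in log2 units), beside the share of all 13258 genes past it. Median intensities of the arrays ran from 5.73 in WT STZ to 5.96 in KO STZ. Klf15 itself read 16.04 in KO STZ, 19.8 in KO vehicle, 72.1 in WT STZ and 50.5 in WT vehicle, so both KO arrays were below both WT arrays for the deleted gene. Whether its probes lie in the deleted stretch is not stated. The 8 genes listed to define skeletal muscle, such as Acta1 and Ckm, had summed intensities between 46368 and 48135 on the 4 arrays. For 5 of them both KO arrays lay below both WT arrays, where 23.9% of all genes did. The differences of these 5 between genotypes were small, from -0.19 to -0.028. Myh1, a myosin heavy chain named after its values were seen, was higher in KO by 0.46 under STZ and 0.24 under vehicle. Intensities of different genes depend on their probes and are not set against each other.

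In muscle given STZ, most collagens read higher in KO than in WT, with chains of the main fibrils and of type VI collagen foremost. Of 41 members, 35 lay above 0 and 6 below in KO STZ against WT STZ, with a median of 0.28 against -0.048 for all genes. At 1.5-fold or more, 8 members were higher, which is 19.5% where 0.845% of all genes were, and none was lower, where 2.81% of all genes were. They were the fibrillar Col1a1, Col1a2, Col3a1 and Col5a2, the beaded filament chains Col6a1, Col6a2 and Col6a3, and the fibril-associated Col22a1. The class medians were 0.31 for fibrillar, 0.30 for basement membrane, 0.33 for fibril-associated and 0.21 for other members. With the level filter at percentile 75 they were 0.71, 0.45, 0.40 and 0.61 in the same order, so the ranking of the classes depends on the filter. That filter leaves few members in a class. Of basement membrane collagens it keeps Col4a1 and Col4a2 alone, and of fibril-associated ones Col9a2, Col14a1 and Col22a1. Genes above level percentile 75 as a whole lay on the other side of 0 in this comparison, with a median of -0.11 over 7212 genes.

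In muscle given vehicle, the members past the limit were again mostly chains of the main fibrils. Of 41 members, 26 lay above 0 and 15 below, with a median of 0.12 against -0.0039 for all genes. At 1.5-fold or more, 4 members were higher, Col1a1, Col1a2, Col3a1 and Col12a1, which is 9.76% of members where 0.581% of all genes were. No member was 1.5-fold or more lower, where 0.777% of all genes were. The median was 0.27 over 11 fibrillar, 0.15 over 5 basement membrane, -0.10 over 9 fibril-associated and 0.070 over 16 other members. With the stricter filter, over the few members it leaves, it was 0.59, 0.52, -0.10 and 0.29 in the same order.

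The genotype comparisons made after STZ and after vehicle have no array in common. The members 1.5-fold or more higher in both were Col1a1, Col1a2 and Col3a1. Across the 41 members the differences under the 2 treatments correlated with r = 0.53 and rho = 0.46, where across all 13258 genes r was 0.23. These points share their arrays and neither members nor genes are independent replicates.

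**Figure D1:**
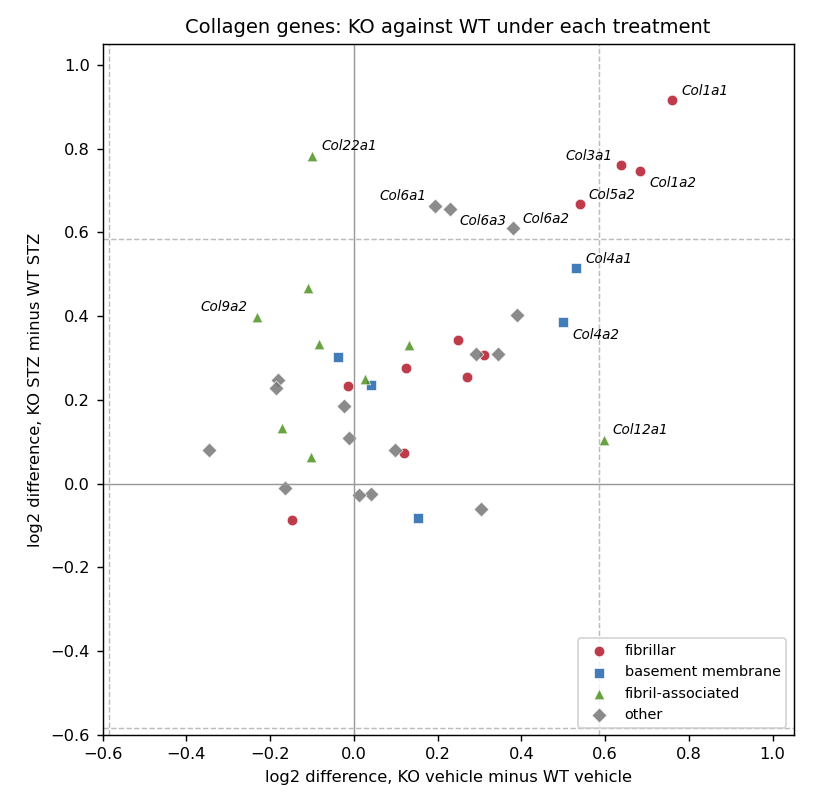
The log2 difference of KO STZ minus WT STZ (vertical axis) is plotted against that of KO vehicle minus WT vehicle (horizontal axis) for 41 collagen genes, each point 1 gene, coloured by class, with dashed lines at 1.5-fold. Col1a1, Col1a2 and Col3a1 lie past 1.5-fold on both axes, Col5a2, Col22a1 and the type VI chains Col6a1, Col6a2 and Col6a3 on the vertical axis alone, and Col12a1 on the horizontal axis alone.

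Pooled over treatment, both KO arrays lay above both WT arrays for 20 of 41 members, where 15.8% of all genes did. Both KO arrays lay below both WT arrays for 1 member, Col17a1, named here after its values were seen, where 23.9% of all genes did. By class the KO arrays lay above for 9 of 11 fibrillar, 3 of 5 basement membrane, 2 of 9 fibril-associated and 6 of 16 other members. A comparison of 2 arrays with 2 allows no test.

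Among fibrillar collagens, the type I and type III chains had the widest separation. Col1a1 encodes the alpha1 chain of type I collagen, the main fibril of tendon and of the sheaths around muscle. It read 756 in KO STZ, 721 in KO vehicle, 399 in WT STZ and 425 in WT vehicle. The KO intensities were 1.90 times the WT value under STZ and 1.70 times under vehicle, and the log2 differences were 0.92 and 0.76 in that order. The KO arrays lay close together, as did the WT arrays, and the gap between genotypes was wide under both treatments.

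Col1a2, the partner chain of Col1a1 in type I collagen, read 435 in KO STZ, 431 in KO vehicle, 257 in WT STZ and 267 in WT vehicle. Its log2 difference between genotypes was 0.75 under STZ and 0.68 under vehicle. A second, dimmer cluster of Col1a2 read 138 in KO STZ, 113 in KO vehicle, 82.3 in WT STZ and 71.1 in WT vehicle, with differences of 0.72 and 0.64. The probes of both clusters therefore placed KO above WT by a like amount. They disagreed on STZ in WT, where the brighter cluster stood at -0.051 and the dimmer at 0.20.

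Col3a1, which encodes the type III collagen of pliable connective tissue such as the sheath around single muscle fibres, read 457 in KO STZ, 438 in KO vehicle, 268 in WT STZ and 280 in WT vehicle. The difference between genotypes was 0.76 under STZ and 0.64 under vehicle. In the brightest clusters of these 3 genes, STZ and vehicle arrays of a genotype lay within 0.090 of each other on the log2 scale.

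Because Col1a2 and Col3a1 separated the genotypes by nearly the same amount, the 250 bases before their annotated starts are shown for comparison. They come from RefSeq (GRCm38.p6), are read 5′ to 3′ on the strand of the gene, and lie at chr6:4505368-4505617 on the + strand for Col1a2 and chr1:45311288-45311537 on the + strand for Col3a1. Capitals mark matches, on either strand, to the motifs CACCC, the box that Kruppel-like factors bind, GGGCGG, the GC box of SP and KLF factors, CCAAT and TATAA.
Col1a2: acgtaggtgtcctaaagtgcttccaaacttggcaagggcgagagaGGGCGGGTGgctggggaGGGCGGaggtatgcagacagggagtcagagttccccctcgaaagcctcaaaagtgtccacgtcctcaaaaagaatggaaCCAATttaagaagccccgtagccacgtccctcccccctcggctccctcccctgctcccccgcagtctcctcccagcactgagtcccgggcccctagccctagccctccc
Col3a1: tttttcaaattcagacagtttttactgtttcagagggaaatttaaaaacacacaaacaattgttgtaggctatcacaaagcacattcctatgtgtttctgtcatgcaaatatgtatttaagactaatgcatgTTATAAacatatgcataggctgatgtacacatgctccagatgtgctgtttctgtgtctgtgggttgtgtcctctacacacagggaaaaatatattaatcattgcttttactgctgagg
The Col1a2 stretch held 2 GGGCGG matches, 1 of which overlaps the reverse of CACCC, and a CCAAT that begins 109 bases before the start, and its GC content was 62.0%. The Col3a1 stretch had a GC content of 35.2% and held TATAA on both strands, overlapping, from 118 bases before the start, and none of the other 3 motifs.

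The same table held 250-base stretches for 35 of the 44 collagen genes, 38 in all because 3 genes have a pair of starts. CACCC was found in 68.4% of the collagen stretches, where 52.0% of 32851 stretches of all genes held it, and GGGCGG in 57.9%, where 32.7% did. CCAAT was found in 34.2% (33.8% of all) and TATAA in 18.4% (22.8% of all). The median GC content was 59.0% in collagen stretches and 52.4% in all, and motifs rich in G and C are more frequent in stretches of high GC content. Of the 8 fibrillar stretches, 6 held CACCC, 6 held GGGCGG and 3 held CCAAT. A match describes the letters and is no evidence of binding.

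Type V collagen forms the core on which type I fibrils start and sets their width. Col5a2 read 44.5 in KO STZ, 43.1 in KO vehicle, 26.6 in WT STZ and 28.5 in WT vehicle, with differences of 0.67 under STZ and 0.54 under vehicle. With an offset of 16 the difference under STZ was 0.50, below the limit. Col5a1 read 62.5 in KO STZ, 66.4 in KO vehicle, 48.5 in WT STZ and 55.4 in WT vehicle, with differences of 0.34 and 0.25. A second, dim cluster of Col5a1 read 5.19 in KO STZ, 5.01 in KO vehicle, 3.81 in WT STZ and 5.24 in WT vehicle. In that cluster the genotypes overlapped. With the mean of both clusters Col5a1 stood at 0.29 under STZ and 0.11 under vehicle. Col5a3, a chain of a rarer type V trimer, read 42.8 in KO STZ, 49.2 in KO vehicle, 33.9 in WT STZ and 38.9 in WT vehicle, with differences of 0.31 under both treatments. In the brightest clusters of all 3 genes both KO arrays were above both WT arrays. The differences of Col5a2 were the nearest to those of the type I and type III chains.

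The other 5 fibrillar genes, Col2a1, Col11a1, Col11a2, Col24a1 and Col27a1, read between 6.18 and 19.9 on any array. Several of them are known for cartilage. Their differences lay between -0.15 and 0.27 under vehicle and between -0.087 and 0.28 under STZ. The 2 fibrillar members whose KO and WT arrays overlapped were Col2a1 and Col27a1, so named after their values were seen.

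**Figure D2:**
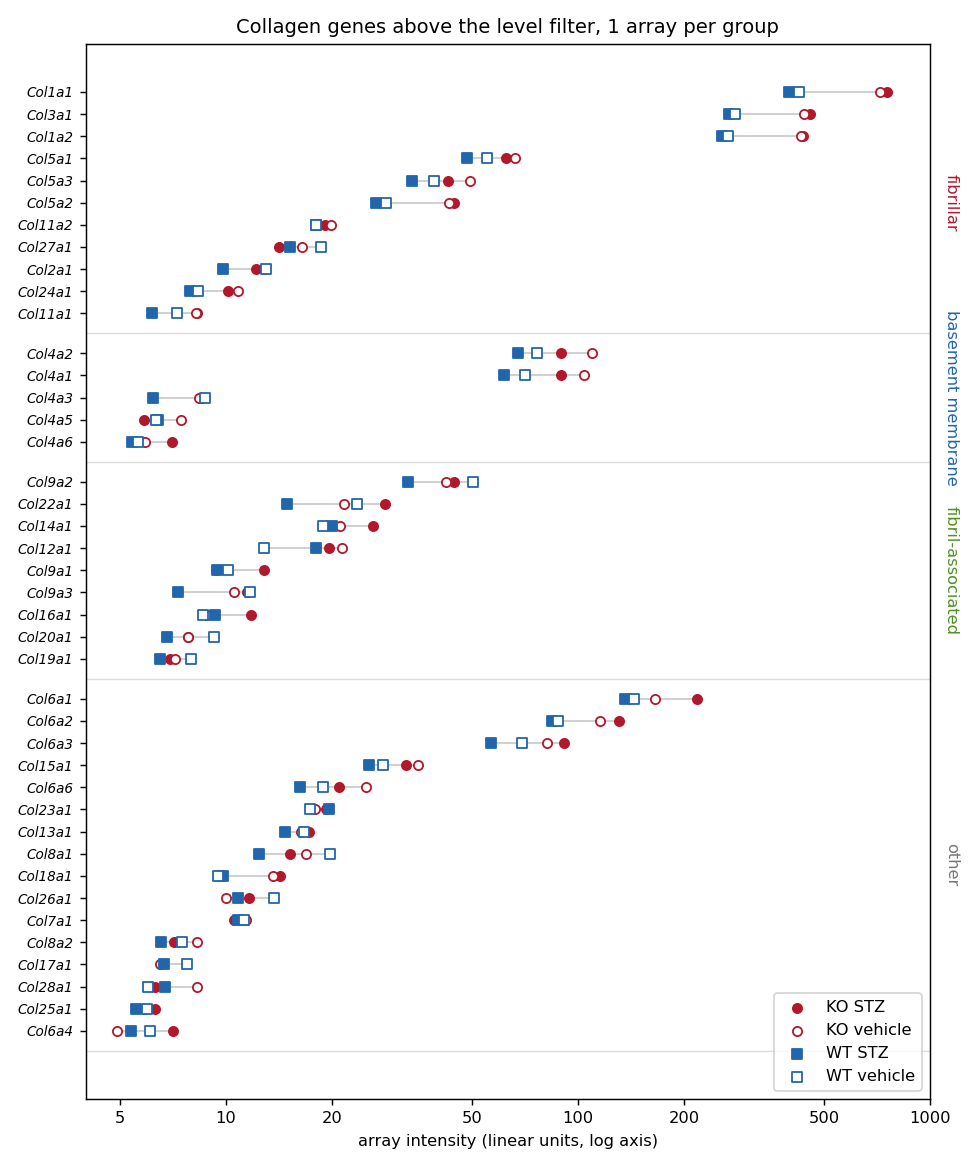
Array intensity (horizontal log axis) is plotted for each of 41 collagen genes (rows, grouped by class) on the KO STZ, KO vehicle, WT STZ and WT vehicle arrays, 1 point per array with no error. Points can be compared along a row and not between rows, and in the rows of Col1a1, Col1a2, Col3a1 and Col5a2 the circles of both KO arrays lie to the right of the squares of both WT arrays with a wide gap.

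Among basement membrane collagens, the chains of the common type IV network were higher in KO under both treatments. Col4a1 encodes the alpha1 chain of that network and read 89.6 in KO STZ, 104 in KO vehicle, 61.6 in WT STZ and 70.8 in WT vehicle. Col4a2, which encodes its partner chain, read 89.5 in KO STZ, 110 in KO vehicle, 67.6 in WT STZ and 76.7 in WT vehicle. The differences between genotypes under STZ and under vehicle were 0.51 and 0.53 for Col4a1 and 0.39 and 0.50 for Col4a2, all short of 1.5-fold. Under quantile normalization and loess Col4a1 was past it under STZ, at 0.66 and 0.64. The genotypes did not overlap for either gene, and within each genotype the STZ array was the lower of its pair.

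The starts of Col4a1 and Col4a2 lie 21 bases apart on opposite strands of chromosome 8 in the RefSeq annotation. In each of the 4 pairwise comparisons the 2 genes differed from each other by at most 0.13 on the log2 scale. The dimmer type IV genes Col4a3, Col4a5 and Col4a6 read between 5.40 and 8.72 on any array, with differences between genotypes from -0.082 to 0.30. Their chains form other networks, best known from the kidney.

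Genes of the proteins that share the basement membrane with type IV collagen were mostly higher in KO as well. Of 11 listed laminin, nidogen, perlecan, agrin and peroxidasin genes, all 11 were measured and lay above 0 under STZ, with a median of 0.24, and 9 lay above 0 under vehicle, also with a median of 0.24. Over all genes 41.8% lay above 0 under STZ and 49.1% under vehicle. Lamc1 under STZ and Hspg2 under vehicle were the members past 1.5-fold, where 0.845% and 0.581% of all genes were higher by that much. Hspg2, which encodes perlecan, read 174 in KO STZ, 213 in KO vehicle, 126 in WT STZ and 137 in WT vehicle, a difference of 0.45 under STZ and 0.62 under vehicle. Lamc1, the gamma1 chain of most laminins, read 264 in KO STZ, 266 in KO vehicle, 156 in WT STZ and 213 in WT vehicle, a difference of 0.75 under STZ and 0.32 under vehicle. Lama2, the laminin chain of the muscle fibre basement membrane, stood at 0.28 and 0.25, Lama4 at 0.011 and 0.21 and Lama5 at 0.14 and -0.025, under STZ and vehicle in that order.

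Type VI collagen, whose chains are mutated in congenital muscular dystrophies in humans, was higher in KO under STZ. Col6a1 read 218 in KO STZ, 166 in KO vehicle, 136 in WT STZ and 144 in WT vehicle. Col6a2 read 131 in KO STZ, 115 in KO vehicle, 84.3 in WT STZ and 87.7 in WT vehicle. Col6a3 read 91.3 in KO STZ, 81.9 in KO vehicle, 56.5 in WT STZ and 69.3 in WT vehicle. For each of the 3 chains KO STZ was the highest array and WT STZ the lowest, and the genotypes did not overlap.

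The differences between genotypes under STZ were 0.66 for Col6a1, 0.61 for Col6a2 and 0.66 for Col6a3, past 1.5-fold in all 3. Under vehicle they were 0.19, 0.38 and 0.23 in the same order, past it in none. The differences between the STZ effects of the genotypes were 0.47, 0.23 and 0.43, below the 1.5-fold limit. A second, dim cluster of Col6a1, which read between 6.51 and 9.46 on the 4 arrays, gave a smaller difference of 0.10 under STZ, and with the mean of both clusters Col6a1 stood at 0.38. Col6a2 stood at 0.57 when each array was centred on its median. With an offset of 16, Col6a2 stood at 0.55 and Col6a3 at 0.56. All of these lie under the limit. The less known type VI chains Col6a4 and Col6a6 lay between 0.25 and 0.31 under STZ and between -0.18 and 0.34 under vehicle.

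In 6 pairs of bright chains of the same molecule, the differences of KO and WT lay closer together than over all pairs of collagens. Over the 6 pairs within types I, IV, V and VI (Col1a1 with Col1a2, Col4a1 with Col4a2, Col5a1 with Col5a2 and the 3 pairs of type VI chains), the median gap between the differences of KO and WT was 0.091 under STZ and 0.11 under vehicle. Over all 820 pairs of the 41 members the median gap was 0.26 and 0.27 in that order. The widest gap within a molecule was that of Col5a1 and Col5a2, at 0.32 under STZ and 0.29 under vehicle. The pairs share genes and arrays, so the gaps are a description. The 820 pairs include many dim members, whose differences the offset pulls towards 0. Across members the level correlated with the difference of KO and WT at r = 0.78 under STZ and r = 0.69 under vehicle. Like brightness and a shared molecule can therefore not be told apart here. Pairs of other types, such as VIII and IX, were not among the 6.

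Fewer of the fibril-associated collagens than of the fibrillar ones lay above 0 under vehicle in KO against WT. Of 9 fibril-associated members, 3 lay above 0 under vehicle and all 9 under STZ. Of 11 fibrillar members, 9 and 10 did in that order. Over all genes 49.1% lay above 0 under vehicle and 41.8% under STZ. For STZ against vehicle the median of fibril-associated members was 0.093 in KO and -0.20 in WT. The 6 members not described next were Col9a1, Col9a2, Col9a3, Col16a1, Col19a1 and Col20a1. In KO against WT they lay between 0.063 and 0.47 under STZ and between -0.23 and 0.027 under vehicle. All of them but Col9a2 were dim, between 6.49 and 12.8 on any array. In other classes Col2a1, Col4a3, Col6a4, Col8a1, Col13a1, Col25a1 and Col26a1 also lay below 0 under vehicle and above 0 under STZ. These are named after their values were seen. The pattern is therefore not particular to the class.

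Col22a1, a collagen of the junction between muscle fibres and tendon, read 28.4 in KO STZ, 21.7 in KO vehicle, 15.0 in WT STZ and 23.5 in WT vehicle. KO STZ was the highest array and WT STZ the lowest, with both vehicle arrays between them. KO exceeded WT by 0.78 under STZ and stood at -0.10 under vehicle. With an offset of 16 in place of 3.69 the difference under STZ was 0.52, below the limit.

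Col12a1, which links fibrils in tendon and in the sheaths of muscle, read 19.7 in KO STZ, 21.3 in KO vehicle, 18.05 in WT STZ and 12.9 in WT vehicle. WT vehicle stood apart below the other 3 arrays. KO exceeded WT by 0.60 under vehicle, which became 0.58 after removal of a loess trend and 0.37 with an offset of 16, both below the limit, and by 0.10 under STZ. Col14a1, which binds to the surface of type I fibrils, read 26.1 in KO STZ, 21.1 in KO vehicle, 20.002 in WT STZ and 18.9 in WT vehicle, with differences of 0.33 under STZ and 0.13 under vehicle. Both genes had both KO arrays above both WT arrays.

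Collagens XV and XVIII, which lie at the outer face of basement membranes and carry sugar chains, were higher in KO by a similar amount under both treatments. Col15a1 read 32.4 in KO STZ, 35.1 in KO vehicle, 25.5 in WT STZ and 28.0 in WT vehicle, with differences of 0.31 under STZ and 0.29 under vehicle. Col18a1, whose C-terminal fragment is endostatin, read 14.2 in KO STZ, 13.6 in KO vehicle, 9.85 in WT STZ and 9.52 in WT vehicle, with differences of 0.40 and 0.39. For both genes the KO arrays lay above the WT arrays. The 4 transmembrane collagens, Col13a1, Col17a1, Col23a1 and Col25a1, stayed between -0.16 and 0.19 in both genotype comparisons, with medians of 0.050 under STZ and -0.017 under vehicle. The remaining members, Col7a1, Col8a1, Col8a2, Col26a1 and Col28a1, lay between -0.35 and 0.30.

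On the offset log2 scale, STZ against vehicle moved no collagen by 1.5-fold in either genotype. As plain intensities 4 members were past it in WT, all lower after STZ, with ratios of WT STZ over WT vehicle of 0.624 for Col9a3, 0.630 for Col8a1, 0.636 for Col22a1 and 0.652 for Col9a2. An offset of 1 likewise gave 4 members, where 0.904% of all genes were lower by that much. The share of all genes on plain intensities was not counted. Col9a2, Col9a3 and Col8a1 are named after their values were seen. In WT, 7 of 41 members lay above 0 and 34 below, with a median of -0.12 against 0.0075 for all genes, and all 11 fibrillar members were below 0. In KO, 24 lay above 0 and 17 below, with a median of 0.013 against -0.032 for all genes. On the offset scale no member was 1.5-fold or more higher in WT, where 1.27% of all genes were, or lower, where 0.445% were. In KO likewise none was higher, where 0.445% of all genes were, or lower, where 0.656% were. The range of members was -0.56 to 0.39 in WT and -0.29 to 0.39 in KO.

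**Figure D3:**
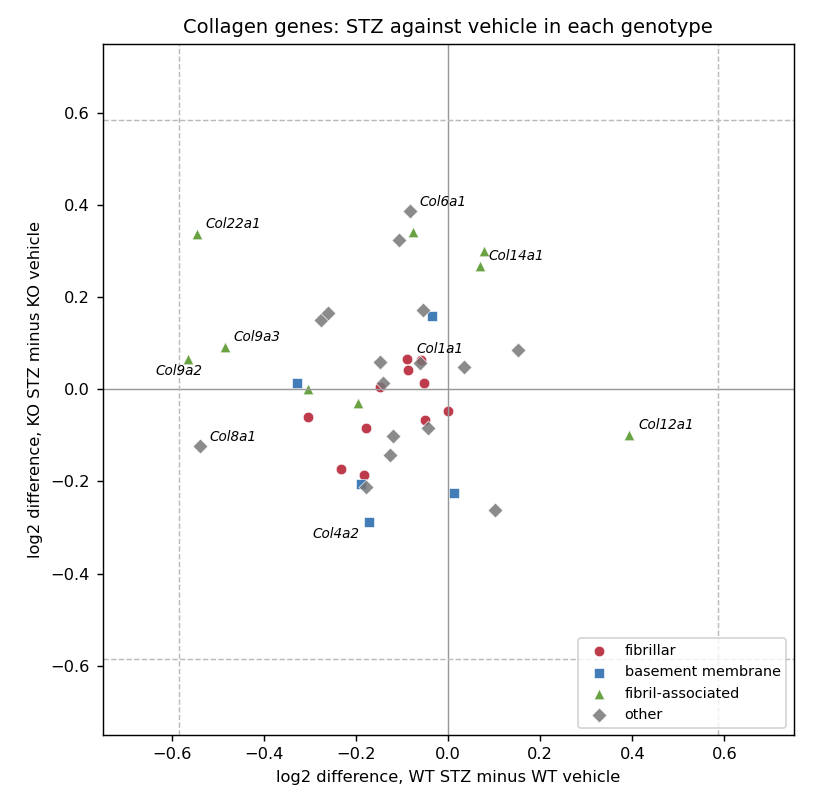
The log2 difference of KO STZ minus KO vehicle (vertical axis) is plotted against that of WT STZ minus WT vehicle (horizontal axis) for 41 collagen genes, each point 1 gene, coloured by class, with dashed lines at 1.5-fold. No point passes a dashed line, and 34 of 41 points lie left of 0 on the WT axis while the KO axis has 24 above 0 and 17 below.

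The lower collagen values of WT STZ showed when the arrays were ranked gene by gene. WT STZ was the lowest of the 4 arrays for 28 of 41 members, where it was so for 24.1% of all genes. Among the 16 members above level percentile 75, WT STZ was the lowest for 15, the exception being Col14a1, and KO STZ or KO vehicle was the highest for 15, the exception being Col9a2, which is named after its values were seen. In those 16 members the KO arrays lay above the WT arrays for 14, all but Col22a1 and Col9a2. Among all 7212 genes above that level, WT STZ was the lowest array for 18.8% and the KO arrays lay above the WT arrays for 11.9%.

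Over both genotypes, both STZ arrays lay above both vehicle arrays for 2 of 41 members, where 13.1% of all genes did, and below for 6, where 18.2% did. The first were Col16a1 and Col23a1, named after their values were seen. The second share, 14.6% of members, is near that of all genes. The median STZ difference of basement membrane collagens was -0.21 in KO and -0.17 in WT, where Col4a1 stood at -0.21 and -0.19 and Col4a2 at -0.29 and -0.17 in that order. Across the 41 members the STZ differences of the genotypes, which share no array, correlated with r = -0.035.

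Between the genotypes the STZ effect differed, KO minus WT, by 1.5-fold or more in 2 members, Col22a1 at 0.88 and Col9a2 at 0.63, which is 4.88% where 1.76% of all genes were. None was 1.5-fold or more below 0, where 3.91% of all genes were. The median of the difference was 0.15 over the 41 members against -0.048 over all genes. By class it was 0.096 for fibrillar, -0.017 for basement membrane, 0.31 for fibril-associated and 0.14 for other members. The basement membrane median turned to 0.11 under quantile normalization and under loess and to 0.089 without a level filter, so no direction is drawn from it.

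Genes that fold, modify and cross-link collagen chains had smaller median differences than the fibrillar chains. Of 18 measured genes of folding and modification, 1 was 1.5-fold or more higher in KO STZ than in WT STZ, P3h1, a prolyl 3-hydroxylase, at 0.60, and 1 lower, Colgalt2, a collagen galactosyltransferase, at -0.71, where 0.845% of all genes were higher and 2.81% lower. Under vehicle none passed that fold, with 9 on either side of 0 and a median of 0.021. Under STZ the list median was -0.049. Both KO arrays lay above both WT arrays for 4 of the 18 and below them for 3. Over all genes 15.8% lay above in this way and 23.9% below. The prolyl 4-hydroxylase subunits P4ha1 and P4ha2 stood at -0.15 and 0.13 under STZ and at 0.23 and -0.15 under vehicle. Of 11 measured genes of procollagen cleavage and cross-linking, 8 lay above 0 under either treatment. Over all genes 41.8% lay above 0 under STZ and 49.1% under vehicle. The list medians were 0.18 under STZ and 0.11 under vehicle. Both KO arrays lay above both WT arrays for 6 of the 11, where 15.8% of all genes did, and below them for none. Sparc, a collagen-binding matrix protein, read 330 in KO STZ, 336 in KO vehicle, 245 in WT STZ and 221 in WT vehicle, a difference of 0.43 under STZ and 0.60 under vehicle. It was the 1 gene of that list past 1.5-fold, and was so under vehicle, where 0.581% of all genes were. With an offset of 16, P3h1, Colgalt2, Sparc, Hspg2 and Clec3b were no longer past the limit. Bmp1, the procollagen C-proteinase, stood at 0.17 and -0.031, under STZ and vehicle in that order.

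Markers of collagen-making cells were read beside the collagens. In a bulk sample fewer cells of a type and less RNA per cell cannot be told apart. The summed intensity of the 11 fibrillar collagens was 1862 in KO STZ, 1817 in KO vehicle, 1091 in WT STZ and 1159 in WT vehicle. That of 8 fibroblast markers of 10 listed was 1923 in KO STZ, 1869 in KO vehicle, 1934 in WT STZ and 1794 in WT vehicle, and between 59.6% and 63.7% of it came from Gsn, which encodes the actin-binding gelsolin. Without Gsn, a sum taken after the values were seen, the other 7 gave 776 in KO STZ, 699 in KO vehicle, 768 in WT STZ and 652 in WT vehicle. The order of KO STZ and WT STZ therefore turned with that gene, and no order is drawn from the sum. The KO arrays lay above the WT arrays for 2 of the 8, Pi16 and Clec3b, where 15.8% of all genes did. Clec3b stood at 0.65 and Cd248, named after its values were seen, at 0.28 under STZ. The fibroblast marker Pdgfra read 102 in KO STZ, 109 in KO vehicle, 107 in WT STZ and 89.5 in WT vehicle, and Dpt read 317, 287, 342 and 293 in that order. Of the 2 fibroblast markers not measured, Tcf21 lay below the level filter.

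Tendon markers were summed over 9 genes to 733 in KO STZ, 730 in KO vehicle, 631 in WT STZ and 556 in WT vehicle. The KO arrays lay above the WT arrays for 5 of 9, where 15.8% of all genes did, and the list medians were 0.054 under STZ and 0.37 under vehicle, against -0.048 and -0.0039 for all genes. Chad, a cartilage and tendon matrix protein, read 87.2 in KO STZ, 103.5 in KO vehicle, 61.2 in WT STZ and 50.2 in WT vehicle. Scx, the transcription factor that marks tendon cells, read 56.1 in KO STZ, 44.6 in KO vehicle, 44.2 in WT STZ and 55.3 in WT vehicle, with KO and WT arrays overlapping, and Tnmd, another tendon marker, read 32.9, 31.9, 32.5 and 20.7 in that order. Endothelial markers summed over 8 genes to 759 in KO STZ, 821 in KO vehicle, 688 in WT STZ and 681 in WT vehicle, and 5 of 8, or 62.5%, had both KO arrays above both WT arrays, where 15.8% of all genes did and 81.8% of fibrillar collagens. The part of any of these cells in the collagen differences was not tested.

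**Figure D4:**
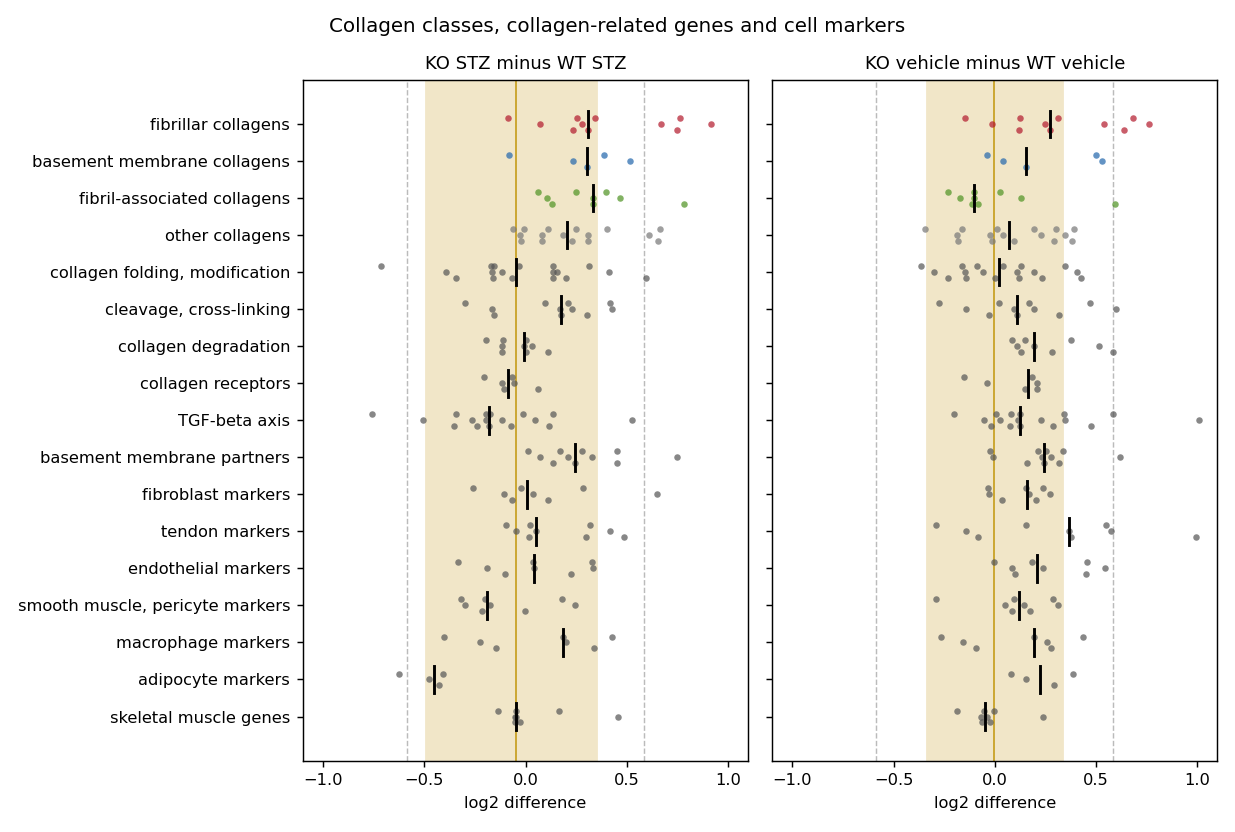
Log2 differences of KO STZ minus WT STZ (left) and KO vehicle minus WT vehicle (right) are plotted for the genes of each list above the level filter, each point 1 gene, with a black bar at the list median, a shaded band from percentile 5 to 95 of all 13258 genes, a line at their median and dashed lines at 1.5-fold. The medians lie at 0.31 under STZ and 0.27 under vehicle for fibrillar collagens and at 0.0077 and 0.16 for fibroblast markers. Under STZ the fibrillar genes past the band are Col1a1, Col1a2, Col3a1 and Col5a2, and Clec3b is the only fibroblast marker past it.

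Brighter collagens differed more between the genotypes than dim ones. Across the 41 members the mean log2 level correlated with the difference of KO and WT at r = 0.78 under STZ and r = 0.69 under vehicle, and with the STZ difference at r = 0.055 in KO and r = 0.00054 in WT. The points share arrays, and the offset pulls the differences of dim genes towards 0. Above level percentile 75 the median of 16 members was 0.56 under STZ, with 16 above 0, and 0.33 under vehicle, with 14 above 0, against medians of -0.11 and -0.014 for all genes above that level.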

How the data were processed

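Biotin-labelled cRNA was prepared from 4 ug of total RNA per the labels' protocols and read on 4 Affymetrix arrays, 1 per group. The authors deposited linear intensity values for 41345 clusters on each array. How the authors corrected background, summarised probes and scaled arrays is not stated in the labels. No column was left out, and the number of arrays limits the precision.

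Of the clusters, 23521 had 1 gene symbol in the platform annotation, 1814 had several and 16010 were not listed there. The collagen rule met 47 clusters with 1 symbol, and 1 cluster shared with other genes was not used. All 44 symbols matched the RefSeq gene table. The offset of 3.69 is percentile 25 of all intensities. The array medians of log2 values lay within 0.035 of each other, so no further scaling was applied. A gene was represented by the cluster of highest mean level. No statistical test was run, because there were no replicates. The counting functions were tested on simulated data. Python 3.11.15, pandas 2.3.3 and statsmodels 0.14.6 were used.

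The members, classes and 18 gene lists, 10 of them of cell type markers, were chosen with earlier results of these data known. Genes given values in all arrays were the members above the level filter at least 1.5-fold different in any pairwise comparison and 16 listed members. From the other lists, genes at least 1.5-fold different and up to 3 in list order were eligible. Besides Klf15 and the members nearest the level filter, other genes given values are marked where they are named. The remaining members are given by range. The sum of fibroblast markers without Gsn and the alternatives for genes of other lists were added after seeing the data. The 8 alternatives were quantile normalization, median centring, removal of a loess trend, offsets of 1 and 16, a gene's clusters averaged, no level filter and a level filter at percentile 75. In the comparisons a median was taken to have moved when it changed by over 0.1.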

Additional observations from a re-analysis of the deposited data

Results flagged for a closer look

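In 2 collagens the STZ difference had opposite signs in the genotypes and the effects lay at least 1.5-fold apart. Whether these differences exceed the variation between animals was not tested, since each rests on 4 arrays with 1 per group. Col22a1, the collagen of the junction between muscle and tendon, stood at 0.34 for KO STZ against KO vehicle and at -0.55 for WT STZ against WT vehicle, a difference of 0.88. Col9a2, a fibril-associated chain best known from cartilage, stood at 0.066 in KO and -0.56 in WT, a difference of 0.63. It read 44.5 in KO STZ, 42.3 in KO vehicle, 32.9 in WT STZ and 50.4 in WT vehicle, so the low value of WT STZ set it apart. The cartilage markers of the list were mostly dim, with 3 of 6 above the level filter and sums of 28.8 in KO STZ, 30.2 in KO vehicle, 32.7 in WT STZ and 28.9 in WT vehicle.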

How the results depend on the processing

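Over the 8 alternatives the collagen median kept its sign in KO against WT under STZ (0.13 to 0.56) and under vehicle (0.060 to 0.33), and in WT STZ against WT vehicle (-0.15 to -0.068), but not in KO STZ against KO vehicle (-0.0083 to 0.053). The 0.13 arose with an offset of 16, and the 0.56 and 0.33 with the level filter at percentile 75, which keeps 16 members. With an offset of 16, 4 members were 1.5-fold or more higher in KO STZ than in WT STZ, in place of 8. The share of all genes also fell, from 0.845% to 0.159%. For the difference between STZ effects 1 member passed, in place of 2, where 0.264% of all genes did. With an offset of 1 that count was 4, where 3.42% of all genes passed. Of members 1.5-fold lower in WT STZ than in WT vehicle there were 4 with an offset of 1, where 0.904% of all genes were. Quantile normalization and loess each gave 1, in place of 0, where 0.520% of all genes were lower. Both KO arrays lay below both WT arrays for 2 members without a level filter and 0 with it at percentile 75, in place of 1. Both KO arrays lay above for 20 members in 7 alternatives. With the stricter filter they did for 14 of the 16 left, where 11.9% of all genes above that level did. In the main setting 15.8% of all genes lay above in this way and 23.9% below. No other share of all genes was counted for these patterns. Of the values of single named collagens, none past the limit changed sign, 653 stayed on their side of it, 9 were no longer past it and 8 were newly past it. For the 11 KO against WT differences past the limit in the other lists, run after the data were seen, 74 values stayed past it, 12 did not and none changed sign. In both counts many outcomes were fixed in advance. A level filter leaves a gene's value as it is, as does averaging for a gene with 1 cluster. A change of offset cannot turn the sign of a difference between 2 arrays. For the difference between STZ effects it can. No measure of stability is therefore drawn from these counts. The cause of the changes between settings was not tested. No paired analysis was possible because each group has 1 array. The offset damps the differences of dim members, and the arrays' signal over background is not known here.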

Other observations

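Of 9 measured genes of collagen degradation, 4 lay above 0 in KO STZ against WT STZ, with a median of -0.0077, and all 9 in KO vehicle against WT vehicle, with a median of 0.19. Over all genes 41.8% lay above 0 under STZ, with a median of -0.048, and 49.1% under vehicle, with a median of -0.0039. Mmp2, a gelatinase, read 178 in KO STZ, 169 in KO vehicle, 175 in WT STZ and 148 in WT vehicle. Mmp14, a membrane-bound collagenase that activates it and is named after its values were seen, read 45.3 in KO STZ, 48.0 in KO vehicle, 45.5 in WT STZ and 36.1 in WT vehicle. For both genes WT vehicle was the low array and the other 3 lay close together.

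Of 17 measured genes of the TGF-beta axis, 4 lay above 0 under STZ and 14 under vehicle in KO against WT. The list medians were -0.18 and 0.12 in that order. Over all genes 41.8% lay above 0 under STZ and 49.1% under vehicle. At 1.5-fold or more, 2 of the 17 were higher under vehicle, where 0.581% of all genes were. Under STZ 1 was lower, where 2.81% of all genes were. Thbs1, a matrix protein that activates TGF-beta, read 21.1 in KO STZ, 39.3 in KO vehicle, 27.9 in WT STZ and 17.7 in WT vehicle, a difference of -0.35 under STZ and 1.01 under vehicle. Ccn2, a TGF-beta target also called CTGF, read 82.8 in KO STZ, 88.8 in KO vehicle, 80.1 in WT STZ and 57.9 in WT vehicle, a difference of 0.046 under STZ and 0.59 under vehicle. Under vehicle Ccn2 lay at the 1.5-fold limit of 0.585. It was below that limit with median centring (0.579), loess (0.583), an offset of 16 (0.50) and the mean over all clusters (0.28). Skil, a TGF-beta target that restrains SMAD factors, stood at -0.76 under STZ and 0.0054 under vehicle, and at -0.40 under STZ with an offset of 16. The ligands Tgfb1, Tgfb2 and Tgfb3 stood at -0.11, -0.51 and -0.17 under STZ and at 0.12, -0.018 and 0.12 under vehicle. Of the collagen receptors, 1 of 6 lay above 0 under STZ and 4 under vehicle, with Itga1, an integrin chain that binds collagen, at 0.060 and 0.21 in that order.

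Adipocyte markers, 4 of 6 measured, summed to 114 in KO STZ, 190.7 in KO vehicle, 162 in WT STZ and 155 in WT vehicle, so their low array was KO STZ. Macrophage markers, 7 of 8 measured, summed to 248 in KO STZ, 222 in KO vehicle, 224 in WT STZ and 198 in WT vehicle. Markers of smooth muscle and pericytes, 8 of 8 measured, summed to 1709 in KO STZ, 1810 in KO vehicle, 1938 in WT STZ and 1686 in WT vehicle. No gene of the 8 had both KO arrays on the same side of both WT arrays. Of all genes, 15.8% had both KO arrays above both WT arrays and 23.9% had them below. Schwann cell markers (3 of 6 measured) had medians of 0.053 under STZ and -0.23 under vehicle in KO against WT, satellite cell markers (4 of 5) 0.011 and 0.061, and markers of the neuromuscular junction (5 of 6) -0.11 and -0.022 in that order.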
